A study of Mus musculus with 4 samples.

Results

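The genes described are 37 translation factor genes, out of the 54021 gene symbols counted by RNA-seq in mouse reconstituted ovaries (rOvaries). They were picked by gene symbol. They comprise 35 genes for initiation and elongation factors (Eif and Eef symbols), the poly(A)-binding protein gene Pabpc1 and Tpt1, and all 37 passed the filter on low counts, a mean CPM (counts scaled to library size) above 10. An rOvary is a graft made of primordial germ cells (PGCs) and gonadal somatic cells of C57BL/6 fetuses at E12.5, mixed at 1:6. The fetuses came from mothers of that strain and fathers carrying actin-GFP, and 1 or 2 such aggregates were placed under the kidney capsule of a recipient whose own ovaries had been removed. The RNA-seq rOvaries came from G2 Terc-/- recipients, that is, second-generation mice on a C57BL/6 background that lack the telomerase RNA, about 10 weeks old at grafting, so both groups shared the telomerase-deficient host but not telomerase-deficient graft cells. Both groups were collected 4 weeks after transplantation. The INK128 group (2 libraries, replicates 1 and 2) drank water with 30 μM INK128, about 1.8 mg per kg body weight per day, while the labels give the dose as 0.75 μM per g. The control group (2 libraries, replicates 1 and 3) received no INK128, and whether its water held the solvent is not given in the sources used here. How many grafts or recipients made up 1 library is not given either, so p-values measure only the spread between these libraries.

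Translation begins when the cap-binding complex eIF4F, made of eIF4E, eIF4G and the helicase eIF4A, recruits the small ribosomal subunit. That subunit already carries eIF3, eIF1, eIF1A and the initiator tRNA delivered by eIF2, and eIF5B then joins the large subunit to it at the start codon. The elongation factors follow, with eEF1A bringing each aminoacyl-tRNA and eEF2 moving the ribosome along. INK128 inhibits both complexes of the kinase mTOR, which controls this machinery through the 4E-BP repressors of eIF4E and through LARP1. The mRNAs most dependent on mTORC1 for their translation are the 5′ TOP mRNAs, which start with a C followed by an unbroken run of pyrimidines. They include the mRNAs of ribosomal proteins, of elongation factors and of some initiation factors. RNA-seq measures the level of these mRNAs and not their translation, and in a whole graft fewer cells of a type cannot be told apart from less RNA per cell.

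The 5′ TOP list used here held 11 of the 37 genes, namely the 5 elongation factor genes, Eif3e, Eif3f, Eif3h, Eif4b, Pabpc1 and Tpt1. The letters around annotated transcript starts are shown because TOP mRNAs are defined by the first bases of the transcript. Each window holds 10 bases before and 20 bases from the start in RefSeq (GRCm38.p6, sense strand, 5′ to 3′), and capitals mark the longest run of pyrimidines that begins with C. The windows of Eef1a1 (chr9:78481705-78481734, minus strand), Eif3f (chr7:108934405-108934434, plus strand) and Eif4b (chr15:102073763-102073792, plus strand) are those on the TOP list with a run of 7 or more. Those of Eif2s3x (chrX:94212632-94212661, minus strand), Eif3k (chr7:28981869-28981898, minus strand) and Eif3l (chr15:79075213-79075242, plus strand) have such a run without being on the list. Eef2 (chr10:81176621-81176650, plus strand), Eef1b2 (chr1:63176821-63176850, plus strand) and Tpt1 (chr14:75845246-75845275, plus strand) are on the list without such a run in this window.
Eef1a1: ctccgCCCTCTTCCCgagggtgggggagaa
Eif3f: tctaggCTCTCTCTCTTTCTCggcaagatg
Eif4b: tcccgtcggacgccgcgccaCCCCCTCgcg
Eif2s3x: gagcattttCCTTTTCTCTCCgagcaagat
Eif3k: aaccggcgctggtgctgaaagcgCCTTTCC
Eif3l: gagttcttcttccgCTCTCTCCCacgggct
Eef2: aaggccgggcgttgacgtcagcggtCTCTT
Eef1b2: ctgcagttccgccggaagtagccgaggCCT
Tpt1: cgCTgacgacagttccgggggagccgcgga

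The search looked for a C followed by 6 or more further pyrimidines anywhere in the 30-base window, on the sense strand only. It found one in 6 of the 29 genes that had a RefSeq promoter entry (20.7%), against 13.5% of all 27025 promoters and 41.4% of 58 cytosolic ribosomal protein genes. Of the TOP list 3 of 6 windows held a run, and of the other 23 windows 3 did (13%). Eef1d, Eef1g, Eif3e, Eif3h and Pabpc1 of the TOP list had no entry. On the TOP list the median log2 fold change with INK128 (edgeR) was 0.86 with a run and 1.08 without. Among the other factors these medians were 0.20 and 0.32, and among 8816 tested genes with an entry −0.06 and −0.04. These differences were not tested. The run was 15 bases long in Eif3f and 12 in Eif2s3x. Counted from the annotated start, it began at base 11 in Eif4b, 14 in Eif3k and 5 in Eif3l. For Eef1a1, Eif3f and Eif2s3x it began before the annotated start. In Eef2, Eef1b2 and Eif3k it reached the last base of the window and may go on beyond it. A start in vivo can differ from the annotated one, so the absence of a run says only that these letters are not in this window.

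Library totals lay between 19130209 and 23029089 counts. Granulosa cell markers were present in every library (summed level 7326 and 9389 CPM with INK128, 3962 and 7732 CPM in controls). The 2 controls stood apart from each other, with 13.8% of tested genes differing more than 2-fold between them against 1% between the 2 INK128 libraries. Control replicate 1 held 1021 counts of 4 Y-linked genes, against 0 to 2 in the other libraries, although the gonads are described as female, and its 8 Sertoli cell markers summed to 7952 CPM against 1033 to 1325 CPM elsewhere. Control replicate 3 had a summed level of 28.9 CPM for 12 oocyte markers, against 865 to 1197 CPM elsewhere. Of 20 kidney markers 18 were lower in both INK128 libraries than in both controls and 1 was higher (summed level 141 and 265 CPM with INK128, 887 and 2058 CPM in controls). Of 17 immune markers 11 were lower in both and none higher (267 and 283 CPM against 460.3 and 667 CPM). Of the 12 oocyte markers 8 were higher in both INK128 libraries than in both controls and none lower. The 7 erythroid markers, of which 3 were higher in both and 2 lower, summed to 100.4 and 94.1 CPM against 27.2 and 62.0 CPM. No marker of these cell types was at 0 in either group, and the part of these differences in the results below was not tested. None of the 37 translation factor genes differed more than 2-fold between the 2 libraries of a group.

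With INK128, 7 of the 37 genes rose and none fell in edgeR's quasi-likelihood test, where a call needs a Benjamini-Hochberg adjusted p under 0.05 and more than 1.5-fold. Among all 11758 tested genes 3.18% rose and 3.19% fell by this rule. The 7 genes were the elongation factor genes Eef1b2, Eef1d and Eef1g, the eIF3 genes Eif3f, Eif3g and Eif3k, and Eif6. DESeq2, with the same thresholds, called 16 higher and 0 lower, against 13.6% and 15.1% of all tested genes. It called all 7 genes above and added Eef1a1, Eif1, Eif3d, Eif3e, Eif3h, Eif3i, Eif3m, Eif5a and Tpt1. limma voom called 0 of the 37 and 0 of all genes. At an unadjusted p below 0.05, edgeR put 16 of the 37 higher and 0 lower (17.7% and 18.7% of all genes) and limma voom likewise 16 and 0 (18.3% and 15.5%). The adjusted p-values of the 7 called genes in edgeR lay between 0.0464 and 0.0486, just under the threshold. The lowest edgeR adjusted p among all 11758 tested genes was also 0.0464. Of the 37 genes 11, all higher, had an edgeR adjusted p below 0.06, against 6.7% of all genes higher and 7.09% lower.

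Both INK128 libraries lay above both controls for 26 of the 37 genes, against 34.5% of all tested genes, and below both for 3 (Eif2s3x, Eif4g1 and Eif4g2), against 34% of all tested genes. The other 8 overlapped. With 2 libraries a group an exact two-sided permutation test cannot go below p = 0.333, so this separation alone is not a test. The share of all counts that fell on the 37 genes was 2.88% and 2.91% with INK128 and 1.92% and 2.09% in controls. The plot of levels by library shows this separation gene by gene.

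**Figure D1:**
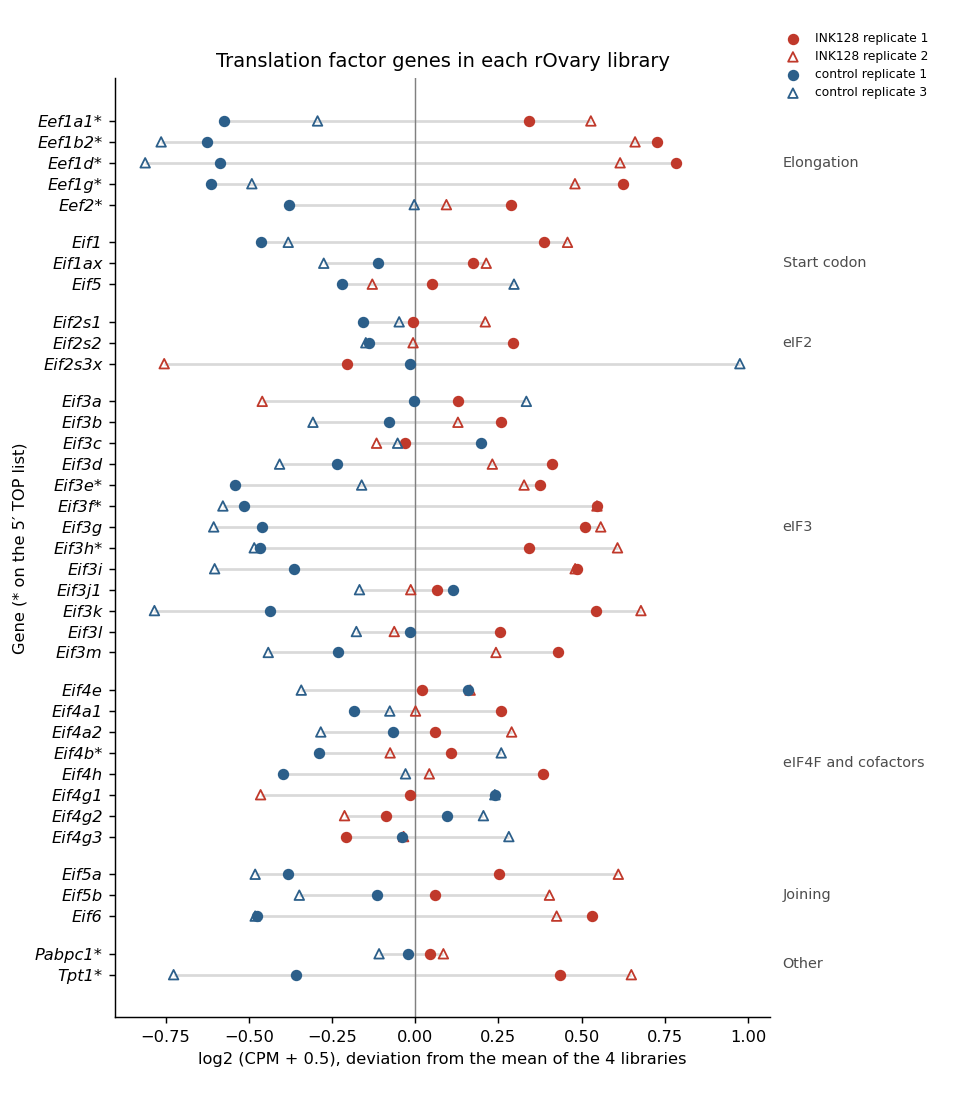
Each row is 1 of the 37 genes, grouped by role, and each point is 1 library, placed by its log2 (CPM + 0.5) minus the mean of the 4 libraries for that gene. Red points are INK128 and blue points control libraries, and asterisks mark the 11 genes on the 5′ TOP list. For 26 genes both red points lie right of both blue points, and for Eif2s3x, Eif4g1 and Eif4g2 both lie left of them.

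Of the 5 elongation factor genes 3 rose in edgeR and 4 in DESeq2 (3.18% and 13.6% of all tested genes), and their median log2 fold change with INK128 (log2FC) was 1.11 against −0.03 for all tested genes. Eef1b2 and Eef1d encode the exchange factors that recharge eEF1A with GTP, and Eef1g encodes the third subunit of that eEF1B complex. On mm10, Eef1b2 lies on chromosome 1 (63176825 to 63180486), Eef1d on chromosome 15 (75894205 to 75909556) and Eef1g on chromosome 19 (8967041 to 8978479). Eef1b2 stood at 874 and 835 CPM in the INK128 libraries and at 342 and 311 CPM in controls. Its log2FC was 1.39 with a standard error (SE) of 0.18 and an edgeR adjusted p of 0.0464, the largest on the list after Eef1d. Both INK128 values were more than 2-fold above both controls. Eef1d stood at 443 and 395 CPM with INK128 and at 171 and 146 CPM in controls. Its log2FC of 1.40 (SE 0.19, edgeR adjusted p = 0.0464) was the largest of all 37 genes. Part of the Eef1d exons (277 bases) is shared with Naprt on the same strand. For Eef1g the levels were 1143 and 1034 CPM against 484 and 527 CPM, with a log2FC of 1.11 (SE 0.18, edgeR adjusted p = 0.048), and again the groups were far apart.

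Eef1a1 (chromosome 9, 78478449 to 78489151) encodes the factor that delivers aminoacyl-tRNA and had the highest level per kilobase of exon among the 37 genes, 4945 CPM per kb with INK128 and 2716 CPM per kb in controls. Its levels were 11529.7 and 13128 CPM against 6111 and 7429.7 CPM, so the groups did not overlap. The log2FC was 0.86 (SE 0.20), and the adjusted p was 0.0628 in edgeR and 0.00104 in DESeq2, so it was called by DESeq2 alone. An annotated miRNA gene, Gm26377, lies inside an Eef1a1 exon and was itself counted at a mean of 2008 CPM with INK128 and 577 CPM in controls, so some Eef1a1 reads may have been assigned to it or left out. Eef2, the translocation factor, had the smallest value of the group. It stood at 3269 and 2859 CPM with INK128 and at 2062 and 2674 CPM in controls, and the lower INK128 library lay close to the higher control. Its log2FC of 0.37 (SE 0.22) had an adjusted p of 0.279 in edgeR. Within the elongation machinery, the 3 eEF1B subunit genes had larger log2FCs than Eef1a1 and Eef2, and the differences between genes were not tested. Eef1a2, the isoform of muscle and neurons, had no more than 0.221 CPM in any library and was not tested.

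The eIF3 complex is the scaffold of the small-subunit initiation complex, and its 13 genes here split into a core octamer (Eif3a, c, e, f, h, k, l and m) and other subunits (Eif3b, d, g, i and j1). The median log2FC over the 13 genes was 0.67. In edgeR 3 genes rose and in DESeq2 8, none fell in either, and 9 of the 13 had both INK128 libraries above both controls (all tested genes, 3.18%, 13.6% and 34.5%). The octamer and the other subunits had medians of 0.68 and 0.64, and of 0.32 and 0.56 when differences in gene length were removed by offsets, which took the median of the complex to 0.33. Eif3k (chromosome 7, 28971372 to 28981864) had the largest value of the complex. It stood at 227 and 249 CPM with INK128 against 115 and 90.1 CPM, a log2FC of 1.22 (SE 0.20, edgeR adjusted p = 0.0486). Eif3f (chromosome 7, 108934417 to 108942951) was almost equal in the 2 INK128 libraries (462 and 461 CPM) and in the 2 controls (221 and 211 CPM), with a log2FC of 1.09 (SE 0.17, edgeR adjusted p = 0.0464). Eif3g (chromosome 9, 20894349 to 20898623), a subunit outside the octamer, stood at 154 and 159 CPM against 78.3 and 70.8 CPM, a log2FC of 1.07 (SE 0.16, edgeR adjusted p = 0.0464). In all 3 genes the lower INK128 library was close to 2-fold the higher control or more.

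Eif3h, Eif3i, Eif3e, Eif3m and Eif3d were called by DESeq2 alone, with log2FCs of 0.96, 0.97, 0.69, 0.67 and 0.64 in edgeR. For Eif3h the levels were 378 and 454 CPM against 216 and 213 CPM (edgeR adjusted p = 0.0523). Eif3e stood at 292 and 282 CPM against 154 and 201 CPM (edgeR adjusted p = 0.0933). Both sets of libraries were apart. In Eif3d, 43.3% of the exonic bases also belong to the antisense gene Gm17638, whose reads cannot be told from those of Eif3d where strand was not used. The remaining subunits were Eif3b (log2FC 0.38), Eif3l (0.20), Eif3j1 (0.05), Eif3c (−0.15) and Eif3a (−0.31), and none was called by either tool. Eif3a, the largest subunit and the organizer of the complex, stood at 312 and 208 CPM with INK128 and at 285 and 360.2 CPM in controls. Its groups overlapped and its adjusted p was 0.449 in edgeR. Eif3j1 has a near-identical copy, Eif3j2, counted at 1.77 to 5.24 CPM, and shares 19% of its exonic bases with Spg11 on the other strand.

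On the deposited counts, the eIF4F complex and its cofactors had the median log2FC nearest 0 of the role groups. It was 0.09 over 8 genes, with values of both signs (−0.46 to 0.42). With length offsets this median was 0.24, against 0.26 for eIF2. With offsets from the longest transcript it was 0.22, against 0.20 for eIF2. Of the 8 genes, 0 were called by edgeR or DESeq2. At an unadjusted p below 0.05 in edgeR 0 passed as well, where 17.7% of all genes were higher and 18.7% lower. With 3.18% of all genes called higher and 3.19% lower by edgeR, 0 of 8 is near that share. Eif4e, which encodes the cap-binding protein held by the 4E-BPs, had a log2FC of 0.17, and the helicase genes Eif4a1 and Eif4a2 had 0.26 and 0.35. Eif4h, a helicase cofactor, had the highest value of the group at 0.42. Its levels were 369 and 292 CPM with INK128 and 215 and 278 CPM in controls, so the lower INK128 library lay just above the higher control (edgeR adjusted p = 0.252). Eif4b, the other cofactor and the member of the TOP list with the smallest value, stood at 447 and 394 CPM with INK128 and at 339 and 496 CPM in controls. Both INK128 values lay between the controls, and the log2FC was 0.01 (SE 0.25).

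The 3 eIF4G scaffold genes had negative log2FCs on the deposited counts, but with length offsets Eif4g2 (0.16) and Eif4g3 (0.25) were positive and Eif4g1 (−0.17) stayed negative. Eif4g1 stood at 352 and 258 CPM with INK128 and at 420.4 and 420.1 CPM in controls, with a log2FC of −0.46 (SE 0.22, edgeR adjusted p = 0.204). Eif4g2, whose product acts in cap-independent initiation, had a log2FC of −0.30 (edgeR adjusted p = 0.282), and both of its INK128 libraries also lay below both controls. Eif4g3 had −0.25 and overlapped. None of the 3 passed the test.

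Among the genes for start-codon selection, Eif1, the gatekeeper of start-site fidelity, had the largest value. It stood at 490.0 and 515 CPM with INK128 and at 272 and 287 CPM in controls, a log2FC of 0.85 (SE 0.17), with an adjusted p of 0.0535 in edgeR and 4.84e-05 in DESeq2. Eif1ax had a log2FC of 0.39 and did not pass either test. Eif5, which triggers GTP hydrolysis by eIF2, stood at 231 and 204 CPM against 192 and 274 CPM. Its groups overlapped, and the log2FC was −0.10 (SE 0.24).

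The 3 eIF2 subunit genes, which carry the initiator tRNA, had values of both signs and none passed the test. Eif2s2 (beta subunit) stood at 163 and 132 CPM against 121 and 119.9 CPM, with a log2FC of 0.30 (edgeR adjusted p = 0.303), and Eif2s1 (alpha subunit, the target of the stress kinases) had 0.21. Eif2s3x (gamma subunit, chromosome X, 94188707 to 94212862) had the lowest value of all 37 genes. It stood at 68.5 and 46.7 CPM with INK128 and at 78.2 and 156 CPM in controls. Both INK128 libraries lay below both controls, but the controls differed from each other almost 2-fold, and the log2FC of −1.02 (SE 0.41) had an adjusted p of 0.149 in edgeR. It was −0.46 without control replicate 3 and −1.45 without control replicate 1. Without control replicate 1 edgeR called Eif2s3x lower, a rule that 23.1% of all tested genes then met. Control replicate 1 was also the library with Y-linked reads, and the Y-linked copy of this gene, Eif2s3y, had 149 counts there and 0 in the other 3 libraries.

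For subunit joining and later steps, Eif6 (chromosome 2, 155819832 to 155826925), whose product binds the large subunit and prevents its premature joining, rose. It stood at 117 and 109 CPM with INK128 and at 58.3 and 58.0 CPM in controls, a log2FC of 0.96 (SE 0.16, edgeR adjusted p = 0.0484). Eif5a, the hypusine-carrying elongation and termination factor, was called by DESeq2 alone, with a log2FC of 0.87 (adjusted p = 0.0646 in edgeR and 0.00146 in DESeq2). Eif5b, the joining GTPase, stood at 179 and 227 CPM against 158 and 135 CPM. Its groups did not overlap, and the log2FC was 0.47 (SE 0.21, edgeR adjusted p = 0.185). Of the Eif5b exonic bases 16.8% are shared with Rev1 on the other strand.

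Tpt1, which encodes the growth-linked protein TCTP, stood at 3473 and 4029 CPM with INK128 and at 2002 and 1553 CPM in controls. Its log2FC was 1.08 (SE 0.22), with an adjusted p of 0.0545 in edgeR and 0.000111 in DESeq2. A processed copy, Tpt1-ps3, was counted at 3348 and 2954 reads with INK128 and at 1581 and 1802 in controls, so some Tpt1 reads may have been lost to it. Pabpc1, which encodes the main cytoplasmic poly(A)-binding protein, was nearly level at 838 and 860.5 CPM against 799 and 752 CPM, a log2FC of 0.13 (SE 0.17, edgeR adjusted p = 0.603).

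**Figure D2:**
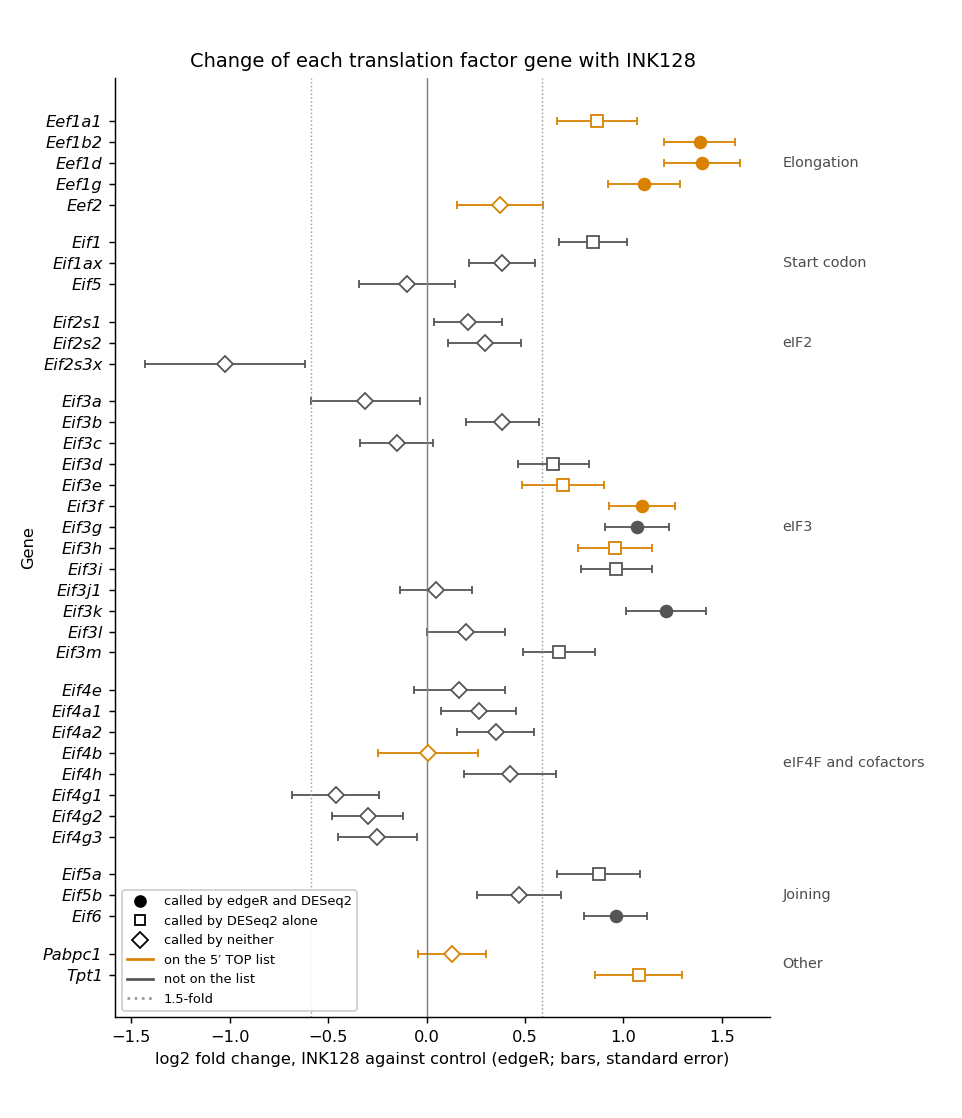
Points give the log2FC of each of the 37 genes in edgeR (INK128 against control, 2 libraries each) with its SE, and dotted lines mark a 1.5-fold change. Filled circles are the 7 genes called by both tools, squares the 9 called by DESeq2 alone and diamonds those called by neither, and orange marks the 5′ TOP list. Elongation and eIF3 genes reach the highest values, while all 8 genes of eIF4F and its cofactors are diamonds.

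Since INK128 blocks the kinase on which TOP mRNAs depend, the TOP genes were set beside the rest of the translation factors. The 11 genes on the TOP list had a median log2FC of 0.96 (range 0.01 to 1.40). The other 26 had a median of 0.32 (range −1.02 to 1.22), and all tested genes −0.03. In edgeR 4 of the 11 and 3 of the 26 rose, and in DESeq2 8 of the 11 and 8 of the 26. Both INK128 libraries lay above both controls for 10 of the 11 TOP genes and for 16 of the other 26. Of all tested genes 3.18% rose in edgeR, 13.6% rose in DESeq2 and 34.5% had this separation. The 6 TOP genes that are not elongation factors had a median of 0.82. A wider TOP list of 19 genes, which adds Eif2s3x, Eif3a, Eif3d, Eif3g, Eif3k, Eif3l, Eif3m and Eif4a2, had a median of 0.69, and the 18 genes outside it 0.28. The difference between the lists was not tested. Several genes outside the TOP list, among them Eif3k, Eif3g, Eif3i and Eif6, lay at or above the TOP median, while Eif4b, Pabpc1 and Eef2 on the list lay below 0.40.

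Outside the 37 genes, the 79 cytosolic ribosomal protein genes, which are the largest class of TOP mRNAs, had a median log2FC of 1.48 (range 0.94 to 2.15). Of these 67 rose in edgeR and all 79 in DESeq2, against 3.18% and 13.6% of all tested genes, and none fell (3.19% and 15.1%). With length offsets their median was 0.95 (range 0.43 to 1.85) and none was called, as was no other gene of the table, and with offsets from the longest transcript it was 0.84. They took 9.52% and 9.74% of all counts with INK128 and 3.96% and 3.7% in controls. A further 7 TOP mRNAs had a median of 0.62. Rack1, a protein of the small ribosomal subunit, was the only one called by edgeR, at 1933 and 2112 CPM against 819 and 891 CPM (log2FC 1.24, SE 0.18, edgeR adjusted p = 0.0464). Npm1 (0.80), Hnrnpa1 (0.68) and Nap1l1 (0.62) were called by DESeq2 alone, and Eif2a (0.34), Vim (−0.20) and Ipo7 (−0.51) by neither. The TOP list of translation factors thus lay between the ribosomal proteins and the remaining factors in its median. Median lengths ran in the same order, with 1770 bases for ribosomal protein genes, 2891 for the TOP list and 4960 for the remaining factors. The 7 further TOP mRNAs had a median length of 4994 bases. The part of length in this order was not tested.

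Other genes of translation, 59 in all with Eif2a from the preceding list among them, and 53 of them tested, had a median log2FC of 0.24. None was called by edgeR, with 18 at an unadjusted p below 0.05 in either direction, a rule met by 17.7% of all genes as higher and by 18.7% as lower. DESeq2 called 8 higher and 2 lower, where 13.6% and 15.1% of all genes were called, so the share called higher was close to that of all genes. The genes that tie mTOR to translation were in this group. Eif4ebp1, the main 4E-BP, stood at 77.5 and 82.5 CPM with INK128 and at 48.9 and 40.4 CPM in controls, a log2FC of 0.84 (adjusted p = 0.0591 in edgeR and 0.00458 in DESeq2). Eif4ebp3 had a log2FC of 1.22 and Pdcd4, the inhibitor of eIF4A, one of 0.62, and both were called by DESeq2 alone. Eif4ebp2 (−0.66, edgeR adjusted p = 0.137) and Larp1 (−0.50, edgeR adjusted p = 0.158) had both INK128 libraries below both controls and were called by neither tool. Eef2k, the kinase that inhibits eEF2, was nearly level at 0.05. Larp4, which binds poly(A) tails, was called lower by DESeq2 (edgeR log2FC −0.76, DESeq2 adjusted p = 0.00576). With length offsets these values were 0.39 for Eif4ebp1, 0.46 for Eif4ebp3, 0.38 for Pdcd4, −0.51 for Eif4ebp2, −0.24 for Larp1, 0.35 for Eef2k and −0.27 for Larp4. With offsets from the longest transcript Larp1 had 0.03.

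Among the genes of eIF2B and the eIF2 kinases, Eif2ak2, the interferon-induced kinase PKR, had −1.32 and was called lower by DESeq2 alone. It stood at 15.9 and 14.8 CPM with INK128 and at 26.1 and 50.6 CPM in controls. With 1 library left out its value lay between −1.73 and −0.78. Eif2ak4 (−0.80) and Eif2ak3 (−0.74) were not called. Of the 11 genes of this list 7 were positive, with a median of 0.33 (−0.03 with length offsets). Eif2b3, a subunit of eIF2B named here after its value was seen, had 0.72 and was called higher by DESeq2 alone. Immune markers also lay lower with INK128, as given above. In termination and recycling the largest values on the deposited counts were those of Denr (0.83) and Mcts1 (0.82), which form a reinitiation complex. The rescue factor Pelo followed (0.69), and DESeq2 called Denr and Pelo. With length offsets Denr had 1.01, Mcts1 0.17 and Pelo 0.07. Mcts1 lay between 0.42 and 1.34 with 1 library left out. Of the paralogs and other cytosolic factors Eif1b had 0.82, Eif4a3 0.68 and Eef1e1 0.59, and DESeq2 called Eif4a3 alone. Their values with length offsets were 0.11, 0.21 and 0.39. Eif1b lay between 0.33 and 1.52 with 1 library left out. Of the mitochondrial translation factors Tsfm had 0.95 and Mtif3 0.83, and DESeq2 called Mtif3 alone. The third largest on the deposited counts was Guf1 at 0.40. With length offsets Tsfm had 0.65, Mtif3 0.91 and Guf1 0.87. With offsets from the longest transcript these were 0.27, 1.12 and 0.90, so the order depended on how length was treated.

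Short genes were higher and long genes lower with INK128 across the whole table, and the translation factors followed the same order. Length here is the number of exonic bases of a gene, all isoforms merged. When all genes were split into 4 equal classes of length, the median log2FC fell from 0.56 in the shortest class (up to 2731 bases) to 0.12, −0.17 and −0.50 in the longest. The translation factors in these classes numbered 11, 8, 13 and 5, with medians of 0.96, 0.32, 0.30 and −0.30. All 11 in the shortest class were positive and called by DESeq2, and 5 of them by edgeR, where 32.7% of all genes of that class were called higher by DESeq2 and 9.23% by edgeR. In the longest class Eif5b alone was positive and none of the 5 was called, where 7.01% of all genes of that class were called lower by edgeR and 30.7% by DESeq2. The 3 eIF4G genes and Eif3a make up the rest of that class. Over the 37 genes the correlation of log2FC with length was −0.63 (Spearman's rho, Pearson's r −0.60 on log2 length), and over 11700 genes −0.46 (r −0.31). All these genes share the same 4 libraries.

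Within the classes the TOP list had the higher median. In the shortest class the medians were 1.08 for 5 TOP genes and 0.92 for 6 others. In the second class 2 TOP genes had a median of 0.73 and 6 others 0.23, and in the third 4 TOP genes had 0.41 and 9 others 0.30. No gene of the TOP list was in the longest class. Against the median of all genes of the same class, both lists were higher in each of the 3 classes. The median length was 2891 bases on the TOP list, 4960 bases among the other factors and 1770 bases among the ribosomal protein genes.

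**Figure D3:**
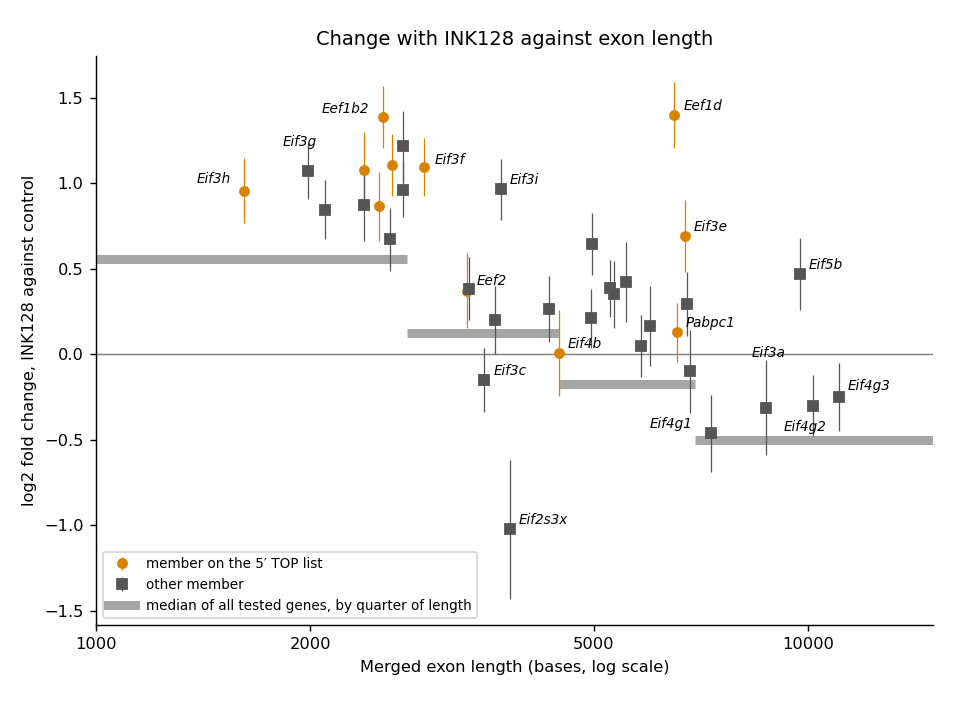
The x axis is merged exon length in bases on a log scale and the y axis the edgeR log2FC with its SE for each of the 37 genes. Orange circles are on the 5′ TOP list, and grey bars give the median of all tested genes in each class of length, from 0.56 in the shortest to −0.50 in the longest. Most translation factors lie above the bar of their class, and Eef1d stands far above the genes of its length.

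When the trend with length was removed in each library by an offset, no gene of the table was called by edgeR, higher or lower (0% in each direction). At an unadjusted p below 0.05, 14 of the 37 genes were then higher and 1, Eif2s3x, was lower, against 12.2% and 14.5% of all genes. The median log2FC of the TOP list went from 0.96 to 0.67 and that of the other 26 genes was 0.32 before and after, while all genes had −0.04. The median of the elongation factor genes went from 1.11 to 0.74. With offsets 33 of the 37 genes were positive, against 5598 of all 11758 tested genes. Eef1d had 1.62, Eef1b2 1.01, Eif3e 0.94, Eif5b 0.91 and Eif3k 0.88, while Eif3h went from 0.96 to 0.33 and Eif1 from 0.85 to 0.36. Exon length can be measured in another way, by the longest single transcript. With offsets built on it, a choice made after the data were seen, the median of the TOP list was 0.41 and that of the other 26 genes 0.28. The size of the difference between the 2 lists thus depended on how length was treated, from 0.96 against 0.32 to 0.41 against 0.28.

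**Figure D4:**
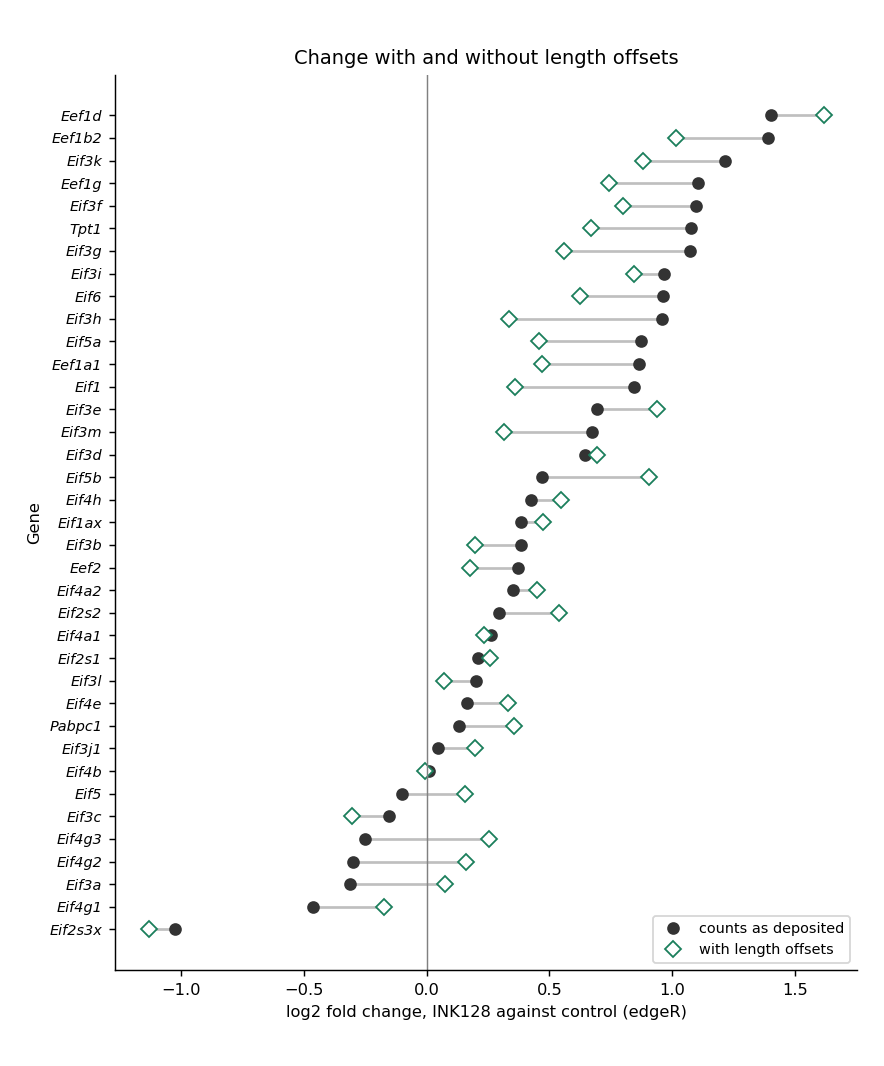
Each row is 1 of the 37 genes, sorted by its edgeR log2FC (INK128 against control) on the deposited counts (black circles), and open diamonds give the value with length offsets. Short genes such as Eif3h and Eif1 move left and long genes such as Eif5b and Eif4g3 move right. With offsets 33 of the 37 genes lie right of 0 (5598 of all 11758 tested genes were positive).

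Without control replicate 1, which held the Y-linked reads, edgeR called 15 of the 37 genes higher and 1 lower, against 22.7% and 23.1% of all genes. Without control replicate 3, which had few oocyte markers, it called 15 higher and 0 lower, against 21.3% and 21.4%. The medians of the TOP list were 0.95 and 0.93 in these fits and those of the other 26 genes 0.36 and 0.27. Without INK128 replicate 1 or replicate 2, edgeR called no gene of the table, with 11 and 8 of the 37 genes higher and none lower at an unadjusted p below 0.05 (6.6% and 5.4% of all genes were higher), and the TOP medians were 1.04 and 0.82. In each of these fits the lone library of a group is assumed to vary like the 2 of the other group. Scaling by library totals alone lowered the median of all genes to −0.16, and 4 of the 37 genes were then called higher and 0 lower. Over all genes this scaling called 2.49% higher and 5.33% lower, in place of the near-equal 3.18% and 3.19%. Relative to that median the TOP list stayed higher, with a median of 0.82. With all 31483 genes of at least 1 count in the test, 13 of the 37 were called higher and 0 lower, against 3.66% and 6.2% of those genes.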

How the data were processed

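RNA-seq of 4 rOvary libraries was analysed, 2 INK128 and 2 control, grouped by their labels. According to the study's methods, reads went through Trimmomatic, Hisat2 (mm10) and featureCounts with RefGene as the annotation. What the authors deposited are raw counts, 1 row per symbol and 1 column per library. Strand use in counting is not given in the sources used here. Counts were scaled to CPM by TMM and fitted in edgeR 4.0.16 (R 4.3.3), whose quasi-likelihood test was adjusted by Benjamini-Hochberg over the 11758 genes that averaged above 10 CPM. Calls needed an adjusted p under 0.05 and more than 1.5-fold. DESeq2 1.42.0 and limma 3.58.1 (voom) were alternatives, besides other scalings, filters, thresholds, offsets for exon length and GC content, and leaving out each library. Each standard error was the log2 fold change over the root of its F statistic. Library totals of 19130209 to 23029089 counts put a floor of 3 counts at 0.13 to 0.157 CPM before TMM scaling, counting error only. Positions and exon lengths came from GENCODE release M21 on mm10 (99.5% of tested genes had a length), start windows from RefSeq GRCm38.p6, where 29 of the 37 genes had an entry. Because the study names RefGene for counting, the gene models behind the counts may differ from those of GENCODE used for lengths and overlaps. Fits were tested on simulated data with less spread between libraries than these data have (common dispersion 0.0949). That test therefore does not show how the fits perform at this spread. Log2 CPM in the plot used a pseudocount of 0.5.

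The genes and lists were chosen with earlier results of these data known, so lists were described by counts and medians and got no test. All 37 genes are named. Values per library are given for those called by edgeR, those on the TOP list and the largest rise and fall of each role. Of other lists, called genes or the 3 largest changes are named, plus the genes that link mTOR to translation and Eif2s3y. Of the ribosomal proteins only counts and the range are given.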

Additional observations from a re-analysis of the deposited data

How the results depend on the processing

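The count of translation factor genes called higher, 7 in edgeR, was 16 in DESeq2, 0 in limma voom, 4 with library totals only, 11 with CPM above 10 in all libraries, 0 with mean CPM above 1, 13 with at least 1 count in any library, 0 with length offsets, 0 with GC offsets, 0 with offsets from the longest transcript (chosen after the data were seen) and 16 at an adjusted p below 0.1. Leaving out 1 library gave 0 to 15. The count called lower stayed 0 in each of these and was 0 to 1 when 1 library was left out. Over all tested genes the calls numbered 749 in edgeR, 3367 in DESeq2, 0 in limma voom, 1520 with CPM above 10 in all libraries, 0 with mean CPM above 1, 3105 with at least 1 count, 0 with length offsets, 0 with GC offsets, 0 with offsets from the longest transcript, 3131 at an adjusted p below 0.1 and 0 to 5290 with 1 library left out. Where no gene was called, an unadjusted p below 0.05 put 8 to 18 of the 37 genes higher and 0 to 1 lower, against 5.4% to 18.3% and 6% to 18.8% of all genes. Besides the fits described above, these were 17 and 0 genes with mean CPM above 1 (15.1% and 17.8% of all genes), 18 and 0 with GC offsets (16.4% and 18.8%) and 9 and 0 with offsets from the longest transcript (11.1% and 13.2%). At an adjusted p below 0.1, 3131 of 11758 tested genes were called, both directions together. For that setting and for CPM above 10 in all libraries, the directions are not given apart here. The 16 and 11 of the 37 genes called higher there therefore have no like share beside them. The cause of the shifts between settings was not tested.

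The TOP median moved to 0.67 with length offsets and 0.41 with offsets from the longest transcript. The median of the other factors moved to 0.39 with upper quartile scaling and 0.19 with library totals only, which lower the median of all genes to −0.16. Single genes that changed sign had a log2 fold change between −0.31 and 0.20 in edgeR, and none of them was called. Under length offsets these were Eif5 (0.16), Eif3a (0.075), Eif4b (−0.0068), Eif4g2 (0.16) and Eif4g3 (0.25). Under offsets from the longest transcript they were Eif5 (0.014), Eif3a (0.0086), Eif3l (−0.067), Eif4g2 (0.32) and Eif4g3 (0.38), and under GC offsets Eif5 (0.052). With library totals only they were Eif3j1 (−0.087), Eif4b (−0.12) and Pabpc1 (−0.0044). Eif4b was −0.00034 in DESeq2, −0.00033 with relative log expression size factors and −0.0082 with CPM above 10 in all libraries. With 1 library left out, Eif5 lay between −0.35 and 0.17, Eif3j1 between −0.10 and 0.18, Eif4e between −0.077 and 0.43 and Eif4b between −0.25 and 0.29. No paired analysis was possible because the 2 groups share only replicate number 1. The counts of these genes lay far above the floor. Every test rests on 2 libraries a group or fewer, with 2 unlike controls, and the part of each in the results was not tested.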
